A study of Bos taurus with 18 samples.

Results

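Translation initiation and elongation factors were measured in bovine blastocysts as transcripts of 51 genes, chosen because the array annotation lists a single gene symbol beginning with EIF (40 genes) or EEF (11 genes) for the probe set. These genes are 51 of the 9162 genes named by a single-gene probe set on the array. They are covered by 69 of the 24016 tested probe sets, and 34 genes have 1 probe set, 16 have 2 and EIF4H has 3. Each gene is represented by its probe set of the highest mean over all arrays.

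The embryos were produced in vitro with sex-sorted semen of 3 bulls, carry the genotype label Mixed breed, and were snap frozen at the blastocyst stage on day 7 after insemination. The 6 groups were females of bull 1, females of bull 2, females of bull 3, males of bull 1, males of bull 2 and males of bull 3, with 3 arrays in each. For each array, RNA was pooled from 60 embryos sharing sex and sire and then amplified, which gave 9 female and 9 male arrays, and each bull is 1 sire. No group was given a treatment, and the comparisons concern embryo sex, sire, and whether the sex difference depends on the sire. Whether the 3 pools in a group were separate cultures is not stated in the labels; the p-values then reflect spread among pools, which may be technical.

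Protein synthesis starts when the eIF2 complex carries the initiator tRNA to the small ribosomal subunit, together with eIF1, eIF1A and the large scaffold eIF3. The eIF4 factors bind the messenger RNA cap and unwind its leader, and the joined complex scans to the start codon. eIF2B then recharges eIF2 with GTP, and kinases that phosphorylate eIF2 block that exchange under stress. During elongation the eEF1 factors deliver aminoacyl-tRNAs and eEF2 moves the ribosome along. A mammalian embryo changes from maternal messengers to its own transcripts before the blastocyst forms, and the blastocyst is a stage of rising protein synthesis. In females of this age both X chromosomes can be transcribed.

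The values are log2 expression values, so that a difference of 1 is a doubling. They ran from 1.89 to 14.15 over the tested probe sets, with array medians from 5.33 to 5.49. A level can be compared between arrays for 1 probe set, but not between probe sets. Precision is limited by the number of arrays, since such data have no read depth. On 4 arrays the relative spread, the interquartile range of the probe sets' deviations from their medians over all arrays, exceeded 0.25. These were female bull 1 replicate 3 (0.305), male bull 1 replicate 2 (0.335), male bull 2 replicate 1 (0.267) and male bull 3 replicate 3 (0.349), against 0.168 to 0.198 on the others. The highest correlation between 2 arrays was 0.997, so that no 2 arrays held the same values. Of the markers of the blastocyst's own cells, some were bright and others dim. POU5F1 of the inner cell mass stood at 11.93 ± 0.06 in females and 11.93 ± 0.08 in males, KRT18 of the trophectoderm at 14.04 ± 0.06 and 14.04 ± 0.07, and GATA6 of the primitive endoderm at 12.43 ± 0.07 and 12.35 ± 0.09 (SD, n = 9 arrays each), while KRT8, ELF5 and HNF4A had means of 5.77, 3.64 and 4.07 over all arrays.

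Most initiation and elongation factors stood at the same level in both sexes to within 0.2 log2, and 6 of 51 passed the test for sex. EIF1AX, EIF2S3, EIF4A2 and EIF1B were higher in females, and EIF2B4 and EEF2 were higher in males. The share that passed was 11.8%, against 15.6% of all probe sets and 20.8% of genes represented by their brightest probe set, so that the count of members was not above the background. In females, 7.84% of members were higher, against 11.5% of genes, and in males 3.92% were higher, against 9.3%. The test was limma's moderated test in a fit of all probe sets, with Benjamini-Hochberg adjustment over all of them and a threshold of 0.05. At an unadjusted p below that value, 9 of 51 passed. The median difference, females minus males, was -0.02 over the 51 members and -0.01 over all genes, with 32 members below 0 and 19 above. In 47 of 51 the difference was within 0.2 log2, and in 44 of 51 its 95% interval lay within 0.3 log2 of 0. Over all 9162 genes the quartiles of the difference were -0.1 and 0.09, so most genes also lay within 0.2 log2. Small differences were therefore not particular to the members. The share of all genes within these limits was not computed. In pooled embryos, a difference in the number of cells of a type and a difference in RNA per cell cannot be told apart.

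**Figure D1:**
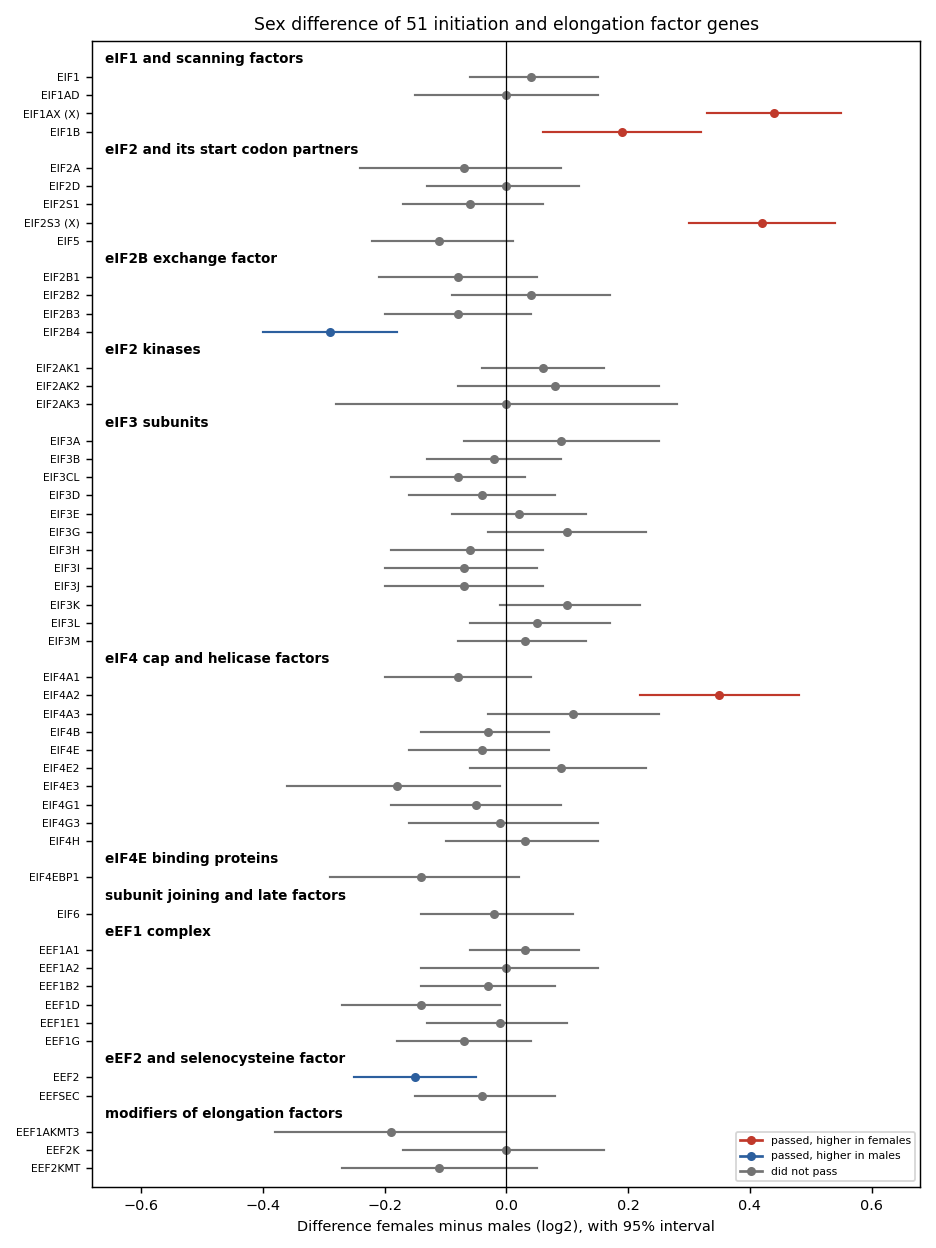
Difference of females minus males (log2, horizontal axis) for each of 51 genes in blocks by role. Points are the fitted difference over 3 bulls, lines its 95% interval, and colour marks the genes that passed the test; EIF1AX and EIF2S3, both X-linked, lie farthest to the right at 0.44 and 0.42, and EIF2B4 farthest to the left at -0.29.

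Among the factors that read the start codon, EIF1AX encodes eIF1A, which keeps the scanning complex open, and it was the member with the largest sex difference. In females its log2 values were 12.53, 12.50 and 12.64 for bull 1, 12.58, 12.56 and 12.63 for bull 2, and 12.67, 12.53 and 12.55 for bull 3. In males they were 12.22, 12.25 and 12.05 for bull 1, 12.30, 12.08 and 12.28 for bull 2, and 12.04, 12.08 and 11.93 for bull 3. The lowest female array lay above the highest male array, so the sexes did not overlap. The means were 12.58 ± 0.06 in females and 12.13 ± 0.13 in males (SD, n = 9), a difference of 0.44 (SE 0.05, 95% interval 0.33 to 0.55), or 1.36-fold, with an adjusted p of 1.1e-05 by limma. The difference was 0.39, 0.37 and 0.57 within bulls 1, 2 and 3, and passed within each (limma adjusted p = 0.0219, 0.0314 and 0.00127). The call within bull 1 was lost without bull 2, without female bull 1 replicate 1 or 3, and without male bull 1 replicate 3. That within bull 2 was lost without bull 3, without any 1 female array of bull 2, and without its male replicate 2 or 3. EIF1AX has a close Y-linked relative in some mammals, and whether its probe set also reads a Y-linked transcript in males was not tested. The same question was not tested for EIF2S3, the other X-linked member.

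EIF1B, a close relative of the start codon factor eIF1, was higher in females by a smaller margin. Its female values were 10.46, 10.36 and 10.13 for bull 1, 10.40, 10.44 and 10.37 for bull 2, and 10.24, 10.21 and 10.45 for bull 3. Its male values were 10.28, 10.36 and 10.21 for bull 1, 10.32, 10.02 and 10.23 for bull 2, and 10.06, 9.90 and 10.01 for bull 3. The sexes overlapped, and the 3 male arrays of bull 3 and 1 male array of bull 2 were the lowest. The means were 10.34 ± 0.12 and 10.15 ± 0.16 (SD, n = 9), a difference of 0.19, or 1.14-fold (limma adjusted p = 0.0462), made of 0.04, 0.21 and 0.32 within bulls 1, 2 and 3. The call depended on single arrays: it was lost in 14 of 18 fits that left out 1 array (adjusted p from 0.0516 to 0.107), and held only without female bull 1 replicate 3, female bull 3 replicate 2, male bull 1 replicate 2 or male bull 2 replicate 1. It was also lost without bull 2 (adjusted p = 0.238), without bull 3 (0.413), with repeated quantile normalization (0.0649) and with bull as the replicate (0.118). EIF1 itself did not pass, with 12.60 ± 0.04 in females and 12.56 ± 0.11 in males, nor did EIF1AD, an eIF1A domain protein, at 8.40 ± 0.19 and 8.40 ± 0.18. Of the 4 measured members of this block, 2 passed, and the median difference was 0.11.

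EIF2S3 encodes the gamma subunit of eIF2, which binds GTP and the initiator tRNA, and it lies on the X chromosome as EIF1AX does. In females its values were 10.53, 10.50 and 10.71 for bull 1, 10.56, 10.47 and 10.41 for bull 2, and 10.49, 10.55 and 10.43 for bull 3. In males they were 10.18, 10.33 and 10.13 for bull 1, 10.20, 9.99 and 10.20 for bull 2, and 10.01, 9.95 and 9.86 for bull 3. Every female array lay above every male array. The means were 10.52 ± 0.09 and 10.10 ± 0.15 (SD, n = 9), a difference of 0.42 (95% interval 0.30 to 0.54), or 1.34-fold, and it was 0.37, 0.35 and 0.55 within bulls 1, 2 and 3. It passed within bulls 1 and 3 (limma adjusted p = 0.035 and 0.00243) and not within bull 2 (0.0586). The bull 1 call was lost without bull 2 or bull 3 and with the mean over probe sets. Dropping replicate 1 or 3 of either sex in bull 1, or replicate 1 of the bull 3 females, also removed it. Within bull 2, EIF2S3 was called in several alternatives, such as array weights, an intensity trend, repeated quantile normalization and 1 probe set per gene. It stayed uncalled there without bull 3 and in most fits without 1 array. Over all bulls, a dimmer probe set of EIF2S3 differed in the same direction, by 0.39 (limma adjusted p = 0.000306). Within bulls 1, 2 and 3 that probe set differed by 0.20, 0.38 and 0.59. It passed within bull 3 only (limma adjusted p = 0.408, 0.0747 and 0.00423), and its female and male arrays overlapped.

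The other measured eIF2 subunit, EIF2S1, which carries the phosphorylation site of eIF2, stood at 10.73 ± 0.04 in females and 10.79 ± 0.12 in males and did not pass. EIF2S2, the beta subunit, was not analysed here. The remaining partners were EIF5, which makes eIF2 hydrolyse its GTP, and EIF2A and EIF2D, which can deliver initiator tRNA by other routes. EIF5 and EIF2A differed by -0.11 and -0.07, EIF2D stood at 8.03 ± 0.09 in females and 8.04 ± 0.14 in males, and none passed. With array weights, and without the arrays of wide spread, EIF5 was called higher in males. Within this block 1 of 5 passed, with a median difference of -0.06. The ratio of EIF2S3 to EIF2S1 on the same array, as a difference of log2 values, was -0.22 ± 0.10 in females and -0.69 ± 0.16 in males (SD, n = 9). That ratio was higher in females by 0.48, and by 0.45, 0.36 and 0.62 within bulls 1, 2 and 3. The level of a log2 ratio holds differences in probe response, so only its change between groups can be read. Pairs of related members were chosen after their values were seen, and their ratios are a description without a test.

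Both X-linked members sat near the middle of the X-linked genes. Of 297 X-linked genes, 208 (70.0%) passed the test as higher in females, 261 had a difference above 0, and the median difference was 0.44, with quartiles of 0.14 and 0.70. A larger difference than that of EIF1AX was found for 146 of the 297 genes (49.2%), and than that of EIF2S3 for 152 (51.2%). The 49 autosomal members ranged from -0.29 to 0.35 with a median of -0.02, with 17 above 0 and 32 below. Of these, 2 passed as higher in females and 2 as lower. Over all 8841 autosomal genes the median difference was also -0.02. The shares of autosomal genes that passed or lay below 0 were not computed.

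**Figure D2:**
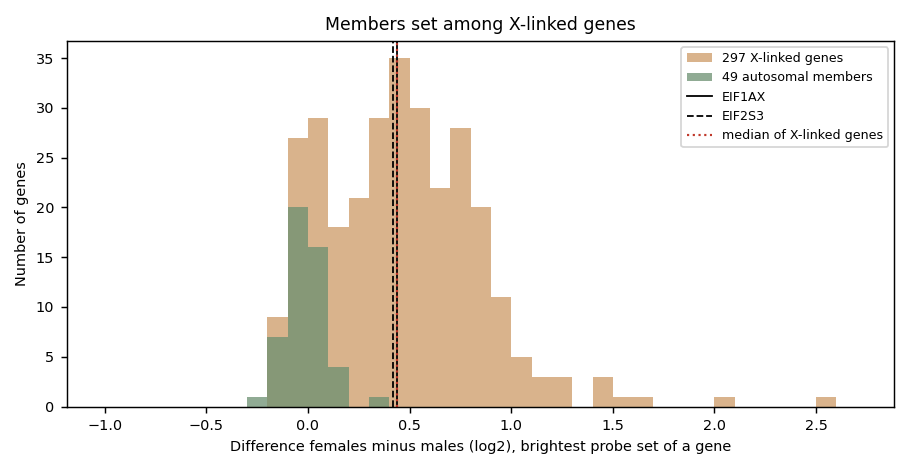
Number of genes (vertical axis) by the difference of females minus males (log2, horizontal axis) for 297 X-linked genes and for 49 autosomal members, in bins of equal width drawn over each other. The solid and dashed lines mark EIF1AX (0.44) and EIF2S3 (0.42), which lie at the median of the X-linked genes, while autosomal members gather around 0.

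EIF2B4 encodes the delta subunit of eIF2B, the factor that reloads eIF2, and it was the member with the largest difference in favour of males. Its female values were 8.83, 8.83 and 8.66 for bull 1, 8.90, 8.85 and 8.95 for bull 2, and 9.03, 8.92 and 8.92 for bull 3. Its male values were 9.18, 9.14 and 9.06 for bull 1, 9.10, 9.10 and 9.17 for bull 2, and 9.13, 9.20 and 9.39 for bull 3. Each male array lay above each female array, although the gap between the highest female and the lowest male was small. The means were 8.87 ± 0.10 in females and 9.16 ± 0.10 in males (SD, n = 9), a difference of -0.29 (95% interval -0.40 to -0.18), 1.22-fold higher in males (limma adjusted p = 0.000707). The difference was -0.36, -0.22 and -0.29 within bulls 1, 2 and 3, and passed within bull 1. That call was lost with repeated quantile normalization, without bull 2, without the arrays of wide spread, and without any 1 female array of bull 1 or its male replicate 1 or 2. EIF2B1, EIF2B2 and EIF2B3, the alpha, beta and gamma subunits, differed by -0.08, 0.04 and -0.08, and none passed. Over these 4 members the median was -0.08, and 1 of 4 passed, while EIF2B5 was not analysed here.

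The eIF2 kinases did not pass for sex. EIF2AK1, which responds to haem and mitochondrial stress, stood at 8.05 ± 0.06 in females and 7.99 ± 0.11 in males. EIF2AK2, which responds to double-stranded RNA, stood at 4.78 ± 0.21 and 4.70 ± 0.12. EIF2AK3, the kinase of the endoplasmic reticulum, was at 4.73 ± 0.27 and 4.73 ± 0.39, the most variable member, with a residual SD of 0.33 within groups. On male bull 3 replicate 3 it lay 0.71 below its mean, and on male bull 3 replicate 2 it lay 0.60 above. The dimmer probe set of EIF2AK2 differed by 0.33 and missed the threshold (limma adjusted p = 0.0573). With the mean over probe sets, EIF2AK2 was called higher in females.

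The subunits of eIF3, the scaffold that holds the small ribosomal subunit, gave no call. None of 12 measured subunits passed for sex, and none had an unadjusted p below 0.05 in limma's test. Their differences ran from -0.08 for EIF3CL to 0.10 for EIF3G and EIF3K, 6 below 0 and 6 above, and their 95% intervals lay between -0.20 and 0.25. The residual SD within groups was 0.07 to 0.16. EIF3A, the largest core subunit, stood at 10.37 ± 0.11 in females and 10.28 ± 0.19 in males, and EIF3E, a subunit of the octameric core, at 11.82 ± 0.06 and 11.80 ± 0.09. EIF3CL is a near copy of EIF3C, and signal of both can meet on its probe set. On male bull 1 replicate 2, an array of wide spread, the median of the 12 subunits lay 0.19 above their means, and on male bull 3 replicate 3 it lay 0.10 below.

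In the cap-binding eIF4 block, EIF4A2 was the member higher in females. It encodes an RNA helicase nearly identical to EIF4A1 and lies on chromosome 1. Its female values were 11.71, 11.70 and 11.72 for bull 1, 11.47, 11.51 and 11.55 for bull 2, and 11.50, 11.64 and 11.62 for bull 3. Its male values were 11.15, 11.56 and 11.41 for bull 1, 11.17, 11.15 and 11.37 for bull 2, and 11.04, 11.29 and 11.11 for bull 3. The ranges met at a single male array, male bull 1 replicate 2, which reached 11.56, and 5 female arrays lay above all males. The means were 11.60 ± 0.10 and 11.25 ± 0.17 (SD, n = 9), a difference of 0.35 (95% interval 0.22 to 0.48), or 1.28-fold (limma adjusted p = 0.000488). Within bulls 1, 2 and 3 it was 0.34, 0.28 and 0.44, and it passed within bull 3. That call was lost without bull 2 and with a covariate for the 5′ to 3′ ends of the actin and GAPDH control probe sets. It was also lost without female bull 3 replicate 2 or 3 or male bull 3 replicate 1 or 3. Within bull 1, EIF4A2 was called as well with array weights, an intensity trend, repeated quantile normalization, the brighter 50% of probe sets or 1 probe set per gene. The same held with the mean over probe sets, with that covariate, or without male bull 1 replicate 2.

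The other helicases of the family did not pass. EIF4A1 stood at 11.75 ± 0.05 in females and 11.83 ± 0.13 in males, a difference of -0.08 (95% interval -0.20 to 0.04), and its highest array was male bull 1 replicate 2 at 12.13. EIF4A3, a related helicase of the exon junction complex, stood at 10.93 ± 0.11 and 10.82 ± 0.15, a difference of 0.11 (95% interval -0.03 to 0.25). The log2 ratio of EIF4A2 to EIF4A1 was -0.15 ± 0.10 in females, from -0.29 to 0.03, and -0.58 ± 0.14 in males, from -0.82 to -0.34. Females and males did not overlap in it, and its difference was 0.43, with 0.47, 0.32 and 0.50 within bulls 1, 2 and 3. EIF4A2 had itself passed for sex and the pair was chosen after its values were seen, so the gap is a description without a test. The ratio of EIF4A3 to EIF4A1 was higher in females by 0.19, and that of EIF4A3 to EIF4A2 was lower in females, with a difference of -0.24.

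The other cap factors did not pass for sex. EIF4E, which binds the cap, stood at 10.75 ± 0.11 in females and 10.79 ± 0.09 in males, and its relative EIF4E2 at 9.74 ± 0.10 and 9.65 ± 0.19. The dimmer probe set of EIF4E2 pointed the other way and passed narrowly, at -0.17 (limma adjusted p = 0.0478), against 0.09 (0.461) for the brightest. EIF4E3, another relative, differed by -0.18 (limma adjusted p = 0.172). It was called higher in males with array weights, without the arrays of wide spread, and without male bull 1 replicate 2. The scaffolds EIF4G1 and EIF4G3 differed by -0.05 and -0.01, and the helicase cofactors EIF4B and EIF4H by -0.03 and 0.03. EIF4EBP1, a repressor that sequesters eIF4E, differed by -0.14 (limma adjusted p = 0.245). EIF6, which keeps free large subunits apart from small ones, differed by -0.02.

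Among the other pairs of related members, the log2 ratio of EIF1B to EIF1 differed by 0.14, females minus males, that of EIF4E2 to EIF4E by 0.13, EIF4E3 to EIF4E by -0.14, EIF4E3 to EIF4E2 by -0.27 and EIF4G3 to EIF4G1 by 0.04. In each of these 5 pairs the female and male arrays overlapped.

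**Figure D3:**
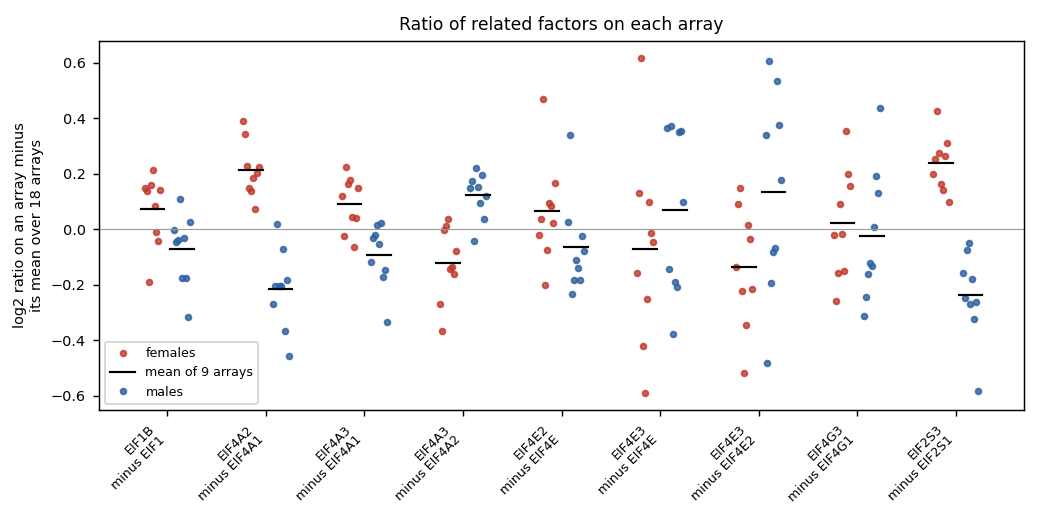
Log2 ratio of 2 related members on each array, minus its mean over 18 arrays (vertical axis), for 9 pairs, with females in red, males in blue and lines at the mean of 9 arrays. For EIF4A2 minus EIF4A1 and for EIF2S3 minus EIF2S1 all female points lie above all male points, with differences of 0.43 and 0.48. The pairs were chosen after their values were seen.

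In elongation, EEF2, the factor that translocates the ribosome, was the member of 11 that passed for sex. Its female values were 12.74, 12.79 and 12.78 for bull 1, 12.83, 12.85 and 12.77 for bull 2, and 12.87, 12.88 and 12.80 for bull 3. Its male values were 12.87, 12.93 and 12.82 for bull 1, 12.97, 13.02 and 12.87 for bull 2, and 13.05, 13.02 and 13.14 for bull 3. Within each bull the female mean was the lower, and the sexes overlapped between 12.82 and 12.88. The means were 12.81 ± 0.05 and 12.97 ± 0.10 (SD, n = 9), a difference of -0.15 (95% interval -0.25 to -0.05), 1.11-fold higher in males (limma adjusted p = 0.0321), made of -0.10, -0.14 and -0.22 within bulls 1, 2 and 3. The call was lost in 8 of 18 fits without 1 array (adjusted p from 0.0515 to 0.0725), namely without replicate 1 of the females of each bull, replicate 3 of the females of bulls 2 and 3, replicates 1 and 2 of the males of bull 2, or replicate 3 of the males of bull 3. It was also lost without the 4 arrays of wide spread (adjusted p = 0.066), without bull 1, 2 or 3 (0.0539, 0.177 and 0.296) and with bull as the replicate (0.144).

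The eEF1 complex, which brings aminoacyl-tRNAs to the ribosome, had no member past the threshold. EEF1A1, its main GTPase, was at 14.09 ± 0.04 in females and 14.06 ± 0.02 in males, close to the highest value of the arrays, 14.15, where differences can be compressed. EEF1A2, the form of muscle and neurons, stood at 3.49 ± 0.12 and 3.49 ± 0.20, near the low end of the scale. Of the exchange factors, EEF1B2 and EEF1G differed by -0.03 and -0.07, and EEF1D by -0.14 (limma adjusted p = 0.166). EEF1E1, a part of the tRNA synthetase complex, differed by -0.01. The median of the 6 was -0.02. EEFSEC, which delivers selenocysteine, differed by -0.04.

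The 3 measured enzymes that modify elongation factors were dim, with means from 3.49 to 5.45, and none passed. EEF2K, the kinase that inhibits eEF2, stood at 3.49 ± 0.13 in females and 3.49 ± 0.18 in males. EEF2KMT, a lysine methyltransferase of eEF2, differed by -0.11. EEF1AKMT3, a lysine methyltransferase of eEF1A, differed by 0.13, -0.15 and -0.56 within bulls 1, 2 and 3, the smallest interaction p of the members (0.0204 unadjusted, by limma's F test). Over all bulls EEF1AKMT3 differed by -0.19 (limma adjusted p = 0.182), and it was called higher in males with array weights and without bull 1. On female bull 3 replicate 3 it lay 0.60 below its mean.

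**Figure D4:**
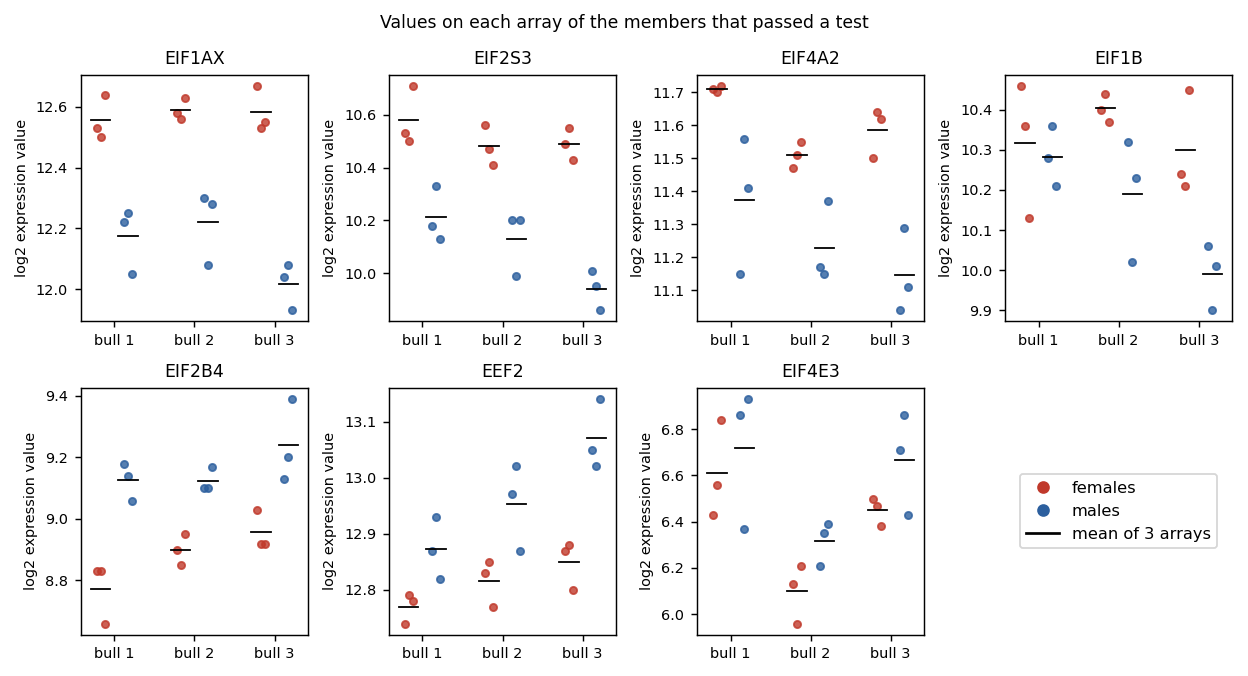
Log2 expression values (vertical axis) of the 7 members that passed a test, by bull (horizontal axis), with 1 point for each array, females in red, males in blue and a line at the mean of 3 arrays; each panel has its own axis, which does not start at 0. Females of EIF1AX and EIF2S3 lie above all males, EIF2B4 shows the reverse, and EIF4E3 is lowest in bull 2 in both sexes.

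Within single bulls, few members passed for sex. The count was 3 of 51 in bull 1 (EIF1AX, EIF2S3 and EIF2B4), or 5.88% against 6.02% of genes by their brightest probe set. It was 1 in bull 2 (EIF1AX), or 1.96% against 4.58%, and 3 in bull 3 (EIF1AX, EIF2S3 and EIF4A2), or 5.88% against 5.92%. No member had a sex difference that differed between bulls after adjustment, and 1 did at an unadjusted p below 0.05. Of all probe sets, 0 passed the interaction test (0.0%) and 656 (2.73%) did so unadjusted. Leaving out 1 array at a time gave 0 to 3 members in bull 1, 0 to 2 in bull 2 and 2 to 4 in bull 3; without female bull 1 replicate 1 or 3 the count in bull 1 was 0, and without any 1 female array of bull 2, or its male replicate 2 or 3, that in bull 2 was 0. A passing call in 1 bull and not in another is therefore not a difference between bulls. For any difference among the 6 groups, 5 of 51 passed (EIF1AX, EIF2S3, EIF4A2, EIF2B4 and EIF4E3), or 9.8%, against 16.5% of genes.

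EIF4E3, an eIF4E relative that binds the cap in a different way, was the member that passed a test between sires. Its values for bull 2 were 6.13, 5.96 and 6.21 in females and 6.21, 6.35 and 6.39 in males. For bull 1 they were 6.43, 6.56 and 6.84 in females and 6.86, 6.37 and 6.93 in males, and for bull 3 they were 6.50, 6.47 and 6.38 in females and 6.71, 6.86 and 6.43 in males. Bull 2 was lowest in both sexes, although its highest array, at 6.39, lay above the lowest arrays of bull 1 and bull 3. The means were 6.21 ± 0.15 for bull 2, 6.67 ± 0.24 for bull 1 and 6.56 ± 0.19 for bull 3 (SD, n = 6). Bull 2 was lower than bull 1 by 1.37-fold, a difference of -0.46 (SE 0.10, limma adjusted p = 0.0306), and missed the threshold against bull 3 (0.0615). The dimmer probe set of EIF4E3 differed by -0.24 and did not pass (limma adjusted p = 0.212). The call was lost in 6 of 18 fits without 1 array (adjusted p from 0.0554 to 0.088): without female bull 1 replicate 3, female bull 2 replicate 1 or 2, male bull 1 replicate 1, or male bull 2 replicate 1 or 3. Sire and any batch shared by the pools of a sire cannot be told apart.

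No other member passed between sires by its brightest probe set. EIF4G3 missed the threshold narrowly, higher in bull 3 than in bull 1 by 0.33 (limma adjusted p = 0.0528). Its dimmer probe set differed by -0.17 and did not pass (limma adjusted p = 0.443). Bull 2 against bull 1 gave 1 of 51 (1.96%), against 2.05% of genes. Bull 3 against bull 1 gave 0 (8 at an unadjusted p below 0.05 in limma's test), against 3.6%, and bull 3 against bull 2 gave 0 (9 unadjusted), against 3.33%. These comparisons share arrays. With array weights in limma the last 2 counts were 3 and 7. Dimmer probe sets of 3 genes passed where the brightest did not. That of EIF5 was lower in bull 3 than in bull 2 (difference -0.64, limma adjusted p = 0.000744), against -0.12 for the brightest, and lower than in bull 1 (difference -0.33, limma adjusted p = 0.0478), against -0.08. One of EIF4H was lower in bull 3 than in bull 2 (difference -0.81, limma adjusted p = 0.0118), against -0.06 for the brightest. Against bull 1 it did not pass. That of EIF2B3 was higher in bull 3 than in bull 1 by 0.50 (0.0118), against -0.14.

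A measure of the 2 ends of a transcript was lowest, on average, in bull 3. The array carries control probe sets at the 5′ and 3′ ends of EEF1A1, and their difference, 5′ minus 3′, averaged 1.60 ± 0.37 in bull 1, 1.38 ± 0.09 in bull 2 and 0.59 ± 0.59 in bull 3 (SD, n = 6 arrays). It ranged from -0.427 to 1.19 in bull 3, lowest on male bull 3 replicate 3. By sex it was 1.22 ± 0.49 in females and 1.16 ± 0.70 in males. The part of this measure in the sire differences of EIF5, EIF4H and EIF2B3 was not tested.

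**Figure D5:**
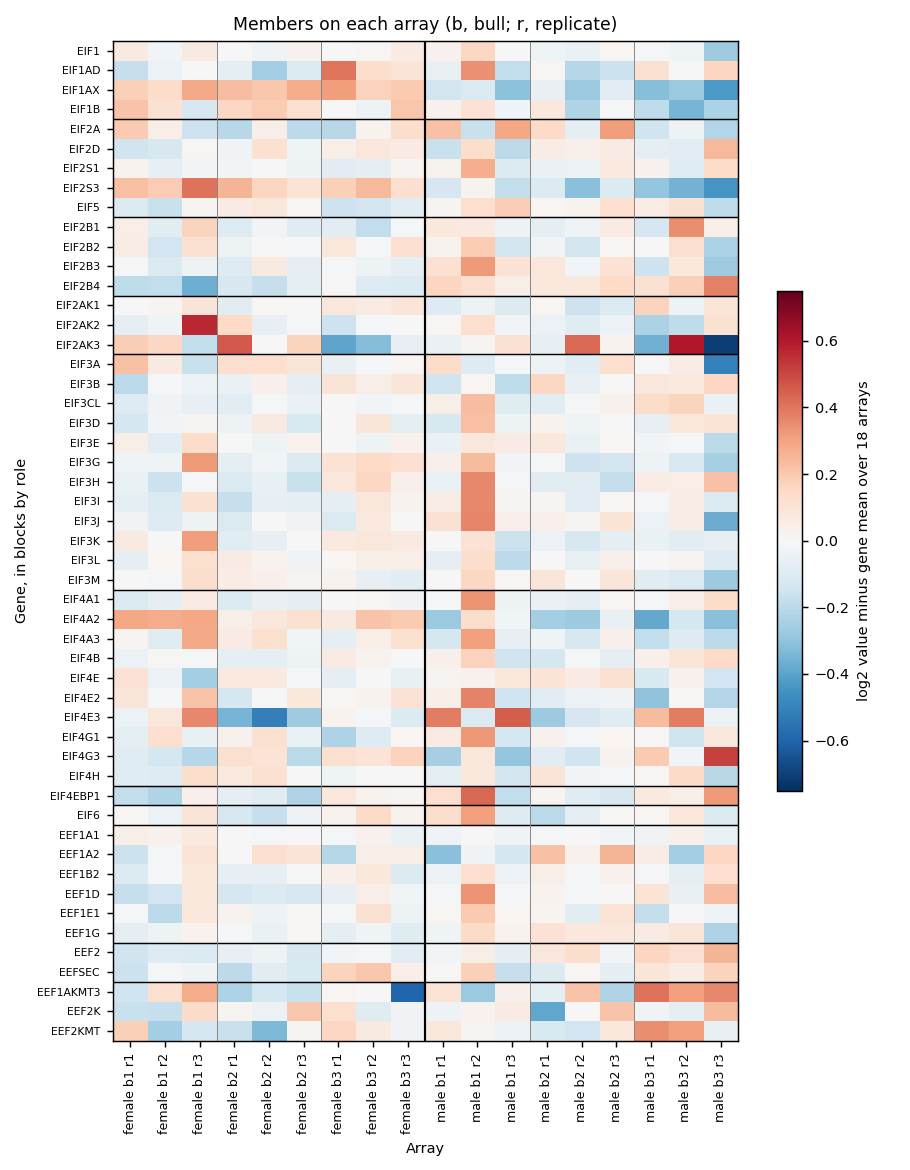
Log2 value of each member minus its mean over 18 arrays (colour, from blue for lower to red for higher), with 51 genes in blocks by role (vertical) and 18 arrays (horizontal), females left and males right of the thick line. EIF1AX, EIF2S3 and EIF4A2 are mostly red on the left and blue on the right, and many initiation factors are red on male bull 1 replicate 2, where the median of all members lies 0.13 above their means.

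Other genes of translation were read beside the members, from lists that hold no EIF or EEF symbol. Of 46 measured of 59 listed, 9 passed the test (19.6%, against 20.8% of all genes by their brightest probe set), 6 as higher in females and 3 as higher in males, and the median difference was -0.02. The share was near the background, and the genes below are given as values. In the list of termination, poly(A) binding and reinitiation factors, 3 of 13 passed, all higher in females. MCTS1, an X-linked reinitiation factor, stood at 7.42 ± 0.12 in females and 6.57 ± 0.23 in males (difference 0.85, limma adjusted p = 6.11e-07). GSPT2, an X-linked release factor GTPase, stood at 6.34 ± 0.20 and 5.66 ± 0.34 (0.67, limma adjusted p = 0.000181), while its autosomal relative GSPT1 differed by -0.03. PELO, a ribosome rescue factor, differed by 0.26 (limma adjusted p = 0.03), but its 2 other probe sets did not pass.

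In the list of mTOR and MNK signalling, 3 of 10 passed. MKNK1, a kinase of eIF4E, was higher in females, at 8.39 ± 0.09 against 8.09 ± 0.13 (0.31, limma adjusted p = 0.000556), as was DDIT4, an inhibitor of mTOR complex 1 (0.28, 0.0342). LAMTOR1, which anchors that complex to lysosomes, was lower in females (difference -0.28, limma adjusted p = 0.00289). RPS6KB1, a ribosomal S6 kinase, did not pass by its brightest probe set, while its other probe set did. In the eIF2 stress list 2 of 10 passed. PPP1R15A, which directs the phosphatase to eIF2, was higher in females by 0.22 (limma adjusted p = 0.0276), and IMPACT, an inhibitor of an eIF2 kinase, was lower (difference -0.30, adjusted p = 0.0269). ATF4, the transcription factor translated under eIF2 phosphorylation, stood at 11.82 ± 0.13 and 11.93 ± 0.20 and did not pass. None of 5 enzymes that modify eIF5A or eEF2 passed. Of 8 mitochondrial factors, GFM1, the mitochondrial elongation factor G, was lower in females (difference -0.29, limma adjusted p = 0.00343), while its other probe set did not pass.

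Of 51 measured markers of cell types, 20 passed the test for sex (39.2%, against 20.8% of all genes). The lists were chosen with earlier results of these data known, so this share is no test of a change in cell types. As higher and as lower in females, 2 and 3 of 8 trophectoderm markers passed, and the same counts were 2 and 0 of 5 for the inner cell mass and 1 and 1 of 6 for the primitive endoderm. They were 2 and 1 of 12 for cumulus and granulosa cells, 1 and 0 of 8 for the oocyte, 2 and 2 of 6 for sperm, and 2 and 1 of 6 for blood cells. The mean level of the trophectoderm list ran from 7.40 to 7.85 over female arrays and from 7.27 to 7.88 over male arrays, and that of the inner cell mass list from 9.45 to 9.70 and from 9.24 to 9.50. The primitive endoderm list ran from 8.23 to 8.47 and from 8.10 to 8.34, the cumulus list from 4.91 to 5.45 and from 4.81 to 5.47, and the oocyte list from 4.66 to 5.41 and from 4.66 to 5.14. The sperm list ran from 5.79 to 6.13 and from 5.51 to 5.79, and the blood list from 4.47 to 5.0 and from 4.41 to 4.77. The differences of single markers reached 1.73 for PRM1 and 0.88 for TNP1 of sperm, 0.92 for RBP4, 0.81 for HBB, 0.75 for SSLP1, 0.59 for IFNT2 and -0.68 for PAG2, each larger in size than that of any autosomal member. The part of these marker differences in the sex differences of EIF4A2, EIF1B, EIF2B4 and EEF2 was not tested.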

How the data were processed

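Amplified RNA of 18 pools was hybridised to Affymetrix bovine arrays from 50 ng of template, per the labels' protocols. The authors deposited log2 expression values per probe set. RMA and Partek 6.4 appear in the submitters' processing notes, with no role given, and the values themselves show the log2 scale. No source used here gives a scan date or batch.

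Of 24128 probe sets, 112 array controls were left out. The annotation gives 13292 probe sets 1 gene, 86 several and 10638 none, and 13263 were matched by gene number to genes of ARS-UCD2.0, from which names and chromosomes were taken. All 51 members matched. The 6 control probe sets of EEF1A1 and EIF4E were not tested.

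The means of 6 groups were fitted to 24016 probe sets in R 4.3.3 by lmFit and eBayes of limma 3.58.1, leaving 12 residual degrees of freedom. Adjustment was by Benjamini-Hochberg, the threshold was 0.05, and folds were computed from log2 differences. Members and lists were chosen with earlier results of these data known. Array values are given for members past the threshold for sex or between bulls (up to 8 and 3 per direction) and for X-linked members. Ratios of related members are differences of log2 values on an array and were not tested.

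On simulated data of 24016 probe sets the sex test recovered 91 of 100 changes of 0.6 log2 and 45 of 100 of 0.3 log2, with 8 false calls. For bull 2 against bull 1 it recovered 87 of 100 changes of 0.6 log2, and the interaction test 87 of 100 of 1.2 log2. The simulated noise was normal, independent and of equal spread on all arrays, and 100 probe sets were changed at each size. In the data 3743 probe sets passed for sex and 4 arrays had wide spread, so these rates may not hold there. Alternatives were array weights, an intensity trend, repeated quantile normalization, the brighter 50% of probe sets, 1 probe set per gene, averaging the probe sets of each gene, the sample number as a block, a covariate for the 5′ to 3′ index, leaving out the arrays of wide spread, each bull or each array, and bull as the replicate. The index was the mean 5′ minus 3′ difference of the actin and GAPDH control probe sets, not the EEF1A1 measure.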

Additional observations from a re-analysis of the deposited data

Results flagged for a closer look

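Of 15 sets of values, each of 1 member in 1 group of arrays, 2 held an array far from the others. The sets share arrays, and no rate by chance was computed for them. EIF2B4 in males reached 9.39 on male bull 3 replicate 3, with the next male array at 9.20 and the lowest at 9.06, a gap of 0.59 of the range. EIF2S3 in females reached 10.71 on female bull 1 replicate 3, with the next female array at 10.56 and the lowest at 10.41, a gap of 0.50 of the range. Both arrays were among the 4 of wide spread, and both genes kept their calls for sex over all bulls without those arrays. Within bull 1, EIF2S3 lost its call without female bull 1 replicate 3, and EIF2B4 lost its call without the arrays of wide spread.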

How the results depend on the processing

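EIF1AX, EIF2S3, EIF4A2 and EIF2B4 kept direction and call for sex in all 31 alternatives, with values of 0.38 to 0.48, 0.36 to 0.46, 0.31 to 0.40 and -0.32 to -0.25 and highest adjusted p of 0.00338, 0.00703, 0.0227 and 0.0145. The count of members differing by sex lay between 4 and 9. Members higher in males (2) were 5 with array weights, 1 without bull 2, without bull 3 and with bull as the replicate, and 1 to 3 without single arrays. Sample numbers did not pair the arrays (45 same-number pairs, correlations from -0.229 to 0.164, and 5 of 18 arrays closest to their own number). With the number as a replicate block, EIF1B was lost (adjusted p = 0.0601) and the counts within bull 1 and bull 2 were 1 and 0. Within bull 1 (3) the count was 0 without bull 2 and 0 to 3 without single arrays. Within bull 2 (1) it was 2 with array weights, trend, quantile normalization, the brighter 50%, 1 probe set per gene, the mean over probe sets, the 5′ to 3′ index, without arrays of wide spread and without bull 1, 0 without bull 3, and 0 to 2 without single arrays. Within bull 3 (3) it was 6 with array weights, 5 with 1 probe set per gene and with the mean over probe sets, and 2 to 4 without single arrays. Bull 2 against bull 1 (1) gave 2 with array weights and 0 to 1 without single arrays. Bull 3 against bull 1 (0) gave 3 with array weights and with the trend, 2 with quantile normalization and the brighter 50%, 1 with 1 probe set per gene, and 0 to 2 without single arrays. Bull 3 against bull 2 (0) gave 7 with array weights, 1 with the trend, 3 with the brighter 50% and the mean over probe sets, 2 without arrays of wide spread, and 0 to 4 without single arrays. The 6-group count (5) was 12 with array weights and 4 to 6 without single arrays. The interaction count stayed at 0. The causes were not tested. Among fits without a single array, the count higher in males was 1 without female bull 1 replicate 1, female bull 2 replicates 1 and 3, female bull 3 replicates 1 and 3, male bull 2 replicates 1 and 2 or male bull 3 replicate 3. That within bull 1 was 0 without its female replicates 1 and 3 and 1 without its male replicates 1 and 3. That within bull 2 was 0 without any of its female replicates or its male replicates 2 and 3, and 2 when bull 1 lost female replicate 3 or male replicate 2. Bull 2 against bull 1 lost EIF4E3 without the 6 arrays named beside it. Bull 3 against bull 1 gave 1 without male bull 1 replicate 2 and 2 without male bull 3 replicate 2. Bull 3 against bull 2 gave 4 without male bull 1 replicate 2, and 1 without male bull 3 replicates 2 and 3 in turn, or female bull 1 replicate 3.

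Small differences of dim probe sets, and differences near the top of the scale, are the least resolved, and 3 arrays per group limit the comparisons within a bull.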
